A study of Mus musculus with 6 samples.

Results

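The Dub genes are a small family of ubiquitin-specific proteases that lie in a cluster on mouse chromosome 7. They were taken as all genes whose symbol is Dub followed by a digit or Usp17l followed by a letter, in the annotation that named the transcripts or in RefSeq. The rule found 6 of the 26567 genes: Dub1, Dub1a, Dub2a and Dub3 by the annotation's symbols, and Usp17l5 and the pseudogene Usp-ps because RefSeq lists them as Usp17lc and Usp17le-ps. Dub1a and Dub3 had been singled out because they were higher in Dnmt1 knockout cells. The values of the Dub genes in that comparison are therefore given as a description, with no test.

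The libraries were RNA-seq of sorted cap mesenchyme, the nephron progenitor population around the ureteric tips, from kidneys of C57BL/6 mouse embryos at embryonic day 18.5. In all of them Six2.Cre, a Cre recombinase driven by Six2 and so active in nephron progenitors and the cells that descend from them, acted on conditional alleles of Dnmt1, which encodes the enzyme that restores DNA methylation after replication. There were 3 heterozygous libraries, genotype Dnmt1 +/- (HET), and 3 homozygous knockout libraries, genotype Dnmt1 -/- (KO). Heterozygotes are therefore the controls, and wild-type or Cre-negative cells were not analysed here. The labels give n = 3 without saying whether each library is a separate embryo or litter, so the p-values below measure only the spread between these samples.

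Deubiquitinases remove ubiquitin from proteins and thereby can spare them from degradation by the proteasome. The mouse Dub genes were described as immediate-early genes induced by cytokines in blood cell lines: DUB-1 by interleukin-3 and DUB-2 by interleukin-2. The related DUB3 is known for removing ubiquitin from Cdc25a, a phosphatase that drives cell cycle entry. Deubiquitinases of this family also belong to the transcripts described in embryonic stem cells that pass through a state like the 2-cell embryo.

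All 6 genes lie on chromosome 7 (GRCm38, the build that mm10 names, with gene bounds from RefSeq). From the centromeric side, they are Dub2a (Usp17ld in RefSeq, chr7:103250086-103252505, minus strand), Usp17l5 (Usp17lc, chr7:103416696-103419174, plus strand), Usp-ps (chr7:104647249-104653154, plus strand), Dub3 (Usp17le, chr7:104767961-104777470, minus strand), Dub1a (Usp17lb, chr7:104840257-104842583, minus strand) and Dub1 (Usp17la, chr7:104857016-104862667, plus strand). Dub2a and Usp17l5 are 164.2 kb apart. A gap of 1228 kb separates Usp17l5 from Usp-ps, and Dub3, Dub1a and Dub1 follow each other with gaps of 62.79 kb and 14.43 kb. The 5 protein-coding genes have 2 or 3 annotated exons.

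The promoters are shown first, because Dnmt1 acts on CG sites. RefSeq (GRCm38.p6) gave them for 4 of the 5 protein-coding genes, all but Dub3. The 250 bases before each RefSeq start are printed 5' to 3' on the gene's strand, and capitals mark CG dinucleotides and the letters TATAAA.
Dub2a (chr7:103252506-103252755, minus strand): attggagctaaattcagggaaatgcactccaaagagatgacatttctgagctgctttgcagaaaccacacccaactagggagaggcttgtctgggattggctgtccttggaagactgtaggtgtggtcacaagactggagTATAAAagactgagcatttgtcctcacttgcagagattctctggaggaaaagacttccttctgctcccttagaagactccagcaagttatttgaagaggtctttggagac
Usp17l5 (chr7:103416446-103416695, plus strand): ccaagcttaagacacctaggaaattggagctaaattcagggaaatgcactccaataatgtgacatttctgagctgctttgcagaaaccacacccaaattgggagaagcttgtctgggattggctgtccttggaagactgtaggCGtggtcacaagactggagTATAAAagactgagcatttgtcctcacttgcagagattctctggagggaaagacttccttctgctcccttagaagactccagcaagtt
Dub1a (chr7:104842584-104842833, minus strand): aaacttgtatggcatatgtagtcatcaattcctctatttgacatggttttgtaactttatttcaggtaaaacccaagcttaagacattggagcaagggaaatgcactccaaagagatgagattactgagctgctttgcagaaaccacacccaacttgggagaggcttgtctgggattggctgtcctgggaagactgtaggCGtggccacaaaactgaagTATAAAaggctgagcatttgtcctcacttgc
Dub1 (chr7:104856766-104857015, plus strand): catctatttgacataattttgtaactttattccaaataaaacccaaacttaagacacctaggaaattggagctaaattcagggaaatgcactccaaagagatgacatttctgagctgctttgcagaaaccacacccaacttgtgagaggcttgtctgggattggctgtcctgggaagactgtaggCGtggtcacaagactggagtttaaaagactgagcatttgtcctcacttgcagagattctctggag
The promoters held few CG sites. In the RefSeq window of 300 bases (250 before the start and 50 after it), Dub2a had 0 CG sites, and Usp17l5, Dub1a and Dub1 had 1 each. The median over 32851 promoters of that length was 7, and 14.1% of them had at most 1. The letters TATAAA, searched on both strands, were found in 3 of the 4 windows (Dub2a, Usp17l5 and Dub1a) and in 13.6% of all promoters. They began 110 bases before the RefSeq start in Dub2a, 88 bases in Usp17l5 and 31 bases in Dub1a. The letters CCACACCC, a CACCC box, were found in all 4 windows and in 3.56% of all promoters. No match was found for the letters AGATAA (in 11.2% of all promoters), CACGTG (7.15%) or TGACGTCA (1.79%), each on both strands. These letters were chosen after the sequences had been seen, and a match describes the sequence only. The 4 windows are near-copies, so a match in several of them does not count as separate observations beside the share of all promoters. In their aligned parts the 4 windows were 89.5% to 96.8% identical, the lower values being those of pairs with Dub1a.

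The coding sequences are near-copies, which limits how reads can be assigned to one gene. Dub2a and Usp17l5 were 98.4% identical over 1638 bases, Dub3 and Dub1 94.7% over 1521 bases, and the other pairs 90.7% to 94.1%. Of the 1404 coding positions present in all 5 genes, 196 differed in at least 1 gene. The 60 coding bases below hold 20 of these positions, marked by capitals, and show both what the genes share and where a read can tell them apart.
Dub2a: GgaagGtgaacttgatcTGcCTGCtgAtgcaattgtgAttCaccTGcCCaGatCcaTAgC
Usp17l5: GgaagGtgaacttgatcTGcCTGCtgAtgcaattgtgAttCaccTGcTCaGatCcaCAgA
Dub3: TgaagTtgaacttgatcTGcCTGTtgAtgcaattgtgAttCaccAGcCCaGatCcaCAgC
Dub1a: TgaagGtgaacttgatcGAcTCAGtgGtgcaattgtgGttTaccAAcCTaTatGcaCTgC
Dub1: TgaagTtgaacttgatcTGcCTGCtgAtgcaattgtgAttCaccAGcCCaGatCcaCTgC
A 31-base word found in only 1 of the 5 genes can by itself tell that gene from the others. Such words made up 35.3% of all 31-base words of the Dub2a transcript, 42.7% in Usp17l5, 54% in Dub3, 71.9% in Dub1a and 71.2% in Dub1. Read length is not given, and a longer read can span several differing positions, so these are not the shares of reads that can be placed. Dub2a shared 61.4% of its words with Usp17l5, so the split of reads within that pair is the least certain. Sums over the pair and over the family do not depend on this split. A search of the NCBIM37 genome with the coding sequences (alignments of at least 500 bases) returned 8 loci: the 6 genes, a stretch 88.65% identical to Dub2a at chr7:115670905-115672578 and a stretch 66.14% identical to it at chr14:63592616-63593437, the last 2 with no annotated gene.

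Dub3 and Dub1a were the clearest on-off pair of the family. Dub3 had 0 estimated counts in each HET library and 554, 805 and 747 in KO replicates 1, 2 and 3. Dub1a also had 0 in each HET library, and 546, 651 and 544 in the KO libraries. Every KO library therefore held more than 500 estimated counts for each of 2 genes that were at 0 in every HET library. An estimate of 0 does not exclude reads that were assigned to a near-copy. In bulk RNA, more cells that express a gene and more RNA per cell cannot be told apart. As normalised read counts (CPM, with TMM library sizes), Dub3 averaged 13.99 ± 1.98 (SD, n = 3) in KO and Dub1a 11.6 ± 0.927. Against a floor of 3 counts in each HET library, which is 0.051 to 0.0662 CPM with the same TMM library sizes, the KO mean of Dub3 was at least 239-fold higher and that of Dub1a at least 198-fold. These bounds cover counting error only. Both annotated transcripts of Dub1a, of 1558 and 1407 bases, were detected in the KO libraries.

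Dub2a followed the same pattern at a lower level. It had 1, 0 and 0 estimated counts in the HET libraries and 242, 151 and 217 in the KO libraries, without overlap. Its mean in KO was 4.11 ± 1.12 CPM, and the KO to HET ratio of summed counts, scaled by library size, was 634, with an exact 95% binomial interval from 113 to 25080 that covers counting error only.

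Usp17l5, which RefSeq equates with Dub2, was already detected in HET cells. It had 40.1, 37.1 and 25.6 estimated counts in the HET libraries and 691, 484 and 945 in the KO libraries. The lowest KO value exceeded the highest HET value 11.96-fold in CPM. The mean rose from 0.659 ± 0.110 to 14.2 ± 4.64 CPM, a 21.5-fold difference, and the fitted log2 fold change was 4.42 ± 0.29 (SE). All its counts were assigned to the longer of its annotated transcripts (2403 bases), and the shorter (1697 bases) was at 0 in all 6 libraries.

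Dub1, the founding cytokine-inducible gene, had the highest HET level and the smallest relative difference. It had 265.7, 181.8 and 174.1 estimated counts in the HET libraries and 494, 698 and 711 in the KO libraries, again without overlap. The means were 4.03 ± 1.05 and 12.6 ± 1.88 CPM, a 3.13-fold difference, with a fitted log2 fold change of 1.65 ± 0.22 (SE). The pseudogene Usp-ps had 0 counts in all 6 libraries and did not enter the fit.

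**Figure D1:**
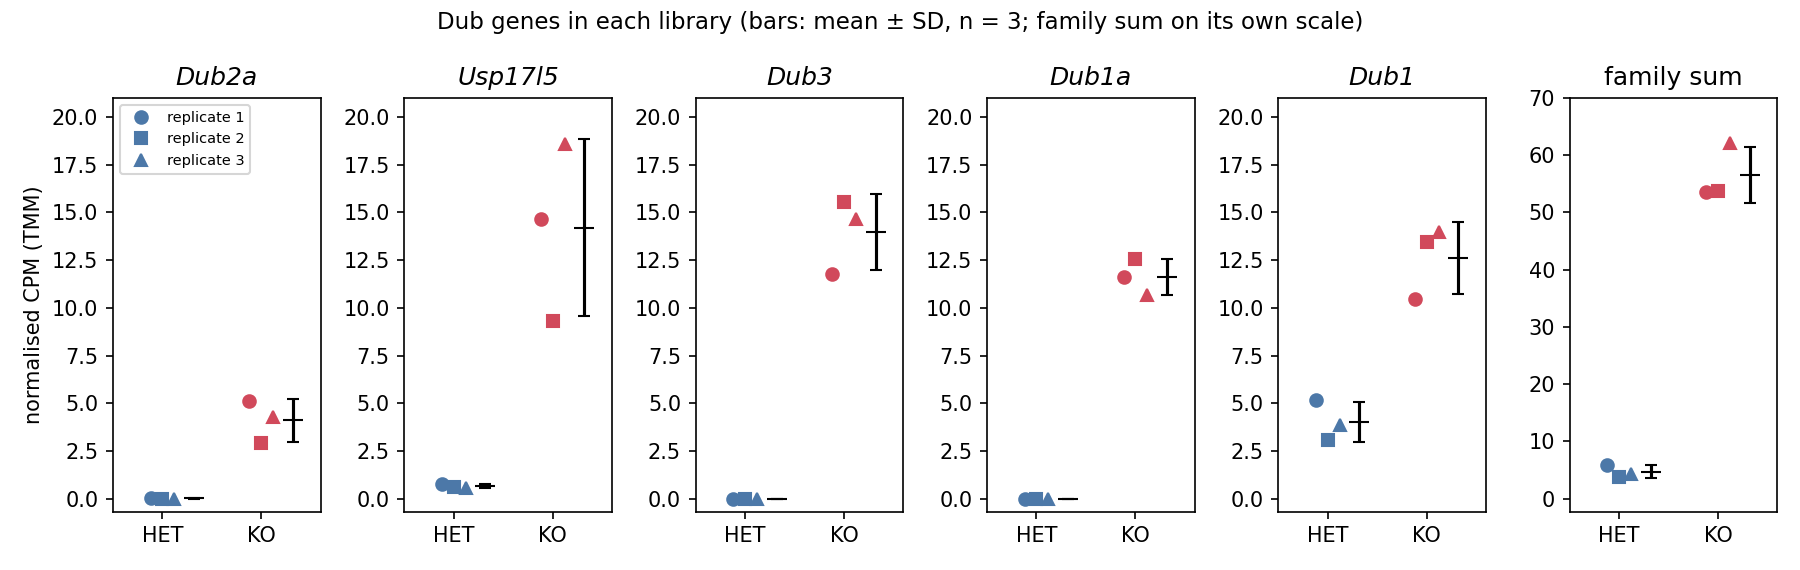
Normalised CPM (TMM library sizes) of the 5 protein-coding Dub genes and of their sum in each of the 3 HET and 3 KO libraries; points are libraries and bars the mean ± SD, with the sum on its own scale. Dub3 and Dub1a lie at 0 in every HET library, and no KO point of any gene lies below a HET point.

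All 5 protein-coding genes passed the filter on low counts and had every KO library above every HET library. Over all 16989 genes tested, 14.8% had this pattern, and 6.85% were called in either direction and 4.92% higher in KO by edgeR's quasi-likelihood test at an adjusted p of 0.05. Since the genes were chosen from this contrast, nothing is read from that count. Summed over the family, the estimated counts were 307, 219 and 200 in HET and 2527, 2789 and 3165 in KO. The sum rose from 4.70 ± 1.15 to 56.5 ± 4.90 CPM, a 12.03-fold difference.

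The order of levels between genes was read from TPM, which is scaled by transcript length. In KO, Dub3 averaged 9.92 ± 1.02 TPM, Dub1a 9.29 ± 0.69, Usp17l5 6.63 ± 2.25, Dub1 5.26 ± 0.62 and Dub2a 2.36 ± 0.74 (SD, n = 3). The ranges of Dub3 and Dub1a overlapped, as did those of Usp17l5 with both Dub1a and Dub1. Dub2a lay below the other 4 genes in every KO library. The makeup of the family differed between the genotypes. In HET libraries Dub1 held 84.2% ± 2.39 of the family's TPM and Usp17l5 15.6% ± 2.49. In KO libraries Dub3 held 29.7% ± 3.77, Dub1a 27.9% ± 3.63, Usp17l5 19.6% ± 5.64, Dub1 15.7% ± 1.76 and Dub2a 7.03% ± 2.08. The share of Dub1 thus lay between 81.5% and 85.9% in HET and between 13.8% and 17.2% in KO.

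**Figure D2:**
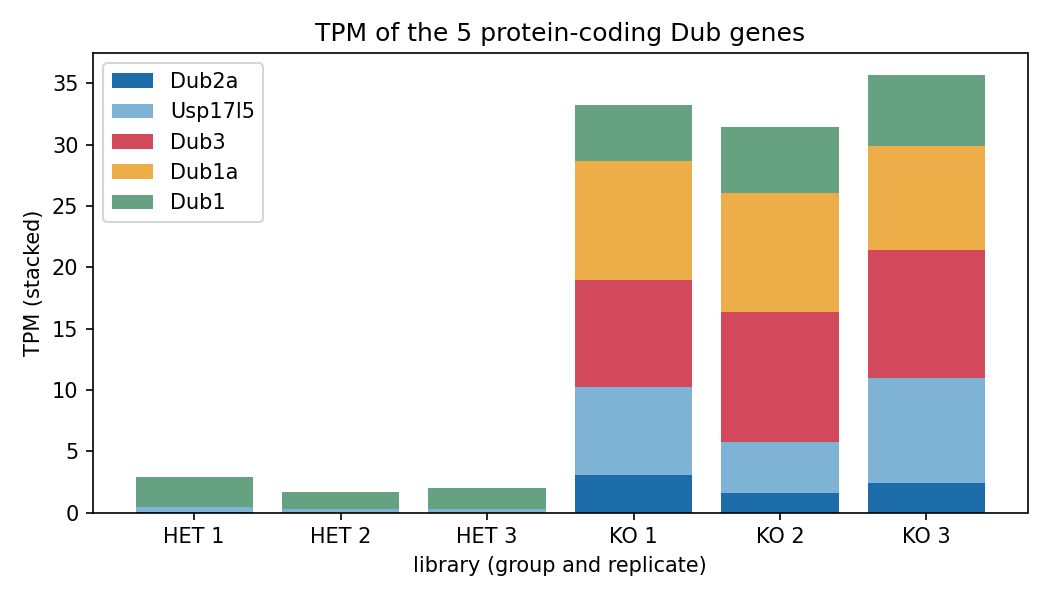
Stacked TPM of the 5 protein-coding Dub genes in each library (x axis, genotype and replicate). The HET bars, of 1.67 to 2.91 TPM, are almost all Dub1 and Usp17l5, and the KO bars, of 31.4 to 35.7 TPM, hold all 5 genes.

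The 2 genes with more than 1 count in any HET library, Dub1 and Usp17l5, have annotated 3' UTRs that contain sequence repeated across the genome. In Dub1, 28.7% of the 867 31-base words of the 3' UTR occurred at least 10 times in the NCBIM37 genome, and 1 of them occurred 36607 times. In Usp17l5 it was 13.3% of 713 words, with a highest copy number of 6647. No annotated word of Dub2a, Dub3 or Dub1a reached 10 copies, but the annotation gives Dub3 no UTR, Dub1a a 3' UTR of 55 bases and Dub2a one of 349 bases, so less 3' sequence could be searched in them. Of the words of Dub1, 81 also occurred in transcripts of 58 genes outside the family, and 37 words of Usp17l5 occurred in 25 such genes. The part of reads from repeats in the HET levels of Dub1 and Usp17l5 was not tested.

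The genes did not vary together in every detail among the KO libraries. Dub2a and Usp17l5, the centromeric pair, summed to 19.8, 12.2 and 22.8 CPM in KO replicates 1, 2 and 3, so replicate 2 was the lowest. Dub3, Dub1a and Dub1 summed to 33.8, 41.5 and 39.3 CPM, so there replicate 2 was the highest. KO replicate 2 is also the only KO library with a high level of Y-linked transcripts, at 185.5 CPM summed over 4 genes against 7.78 and 10.4 CPM in the other 2. In HET the same sum was 308.8, 9.15 and 256.2 CPM in replicates 1, 2 and 3, so 2 of 3 HET libraries and 1 of 3 KO libraries had high Y-linked RNA. With 1 such library, sex and any other property of that library cannot be told apart. The coefficient of variation over the KO libraries was 27.2% for Dub2a, 32.7% for Usp17l5, 14.2% for Dub3, 7.99% for Dub1a, 14.9% for Dub1 and 8.67% for the sum.

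Library totals lay between 46741667 and 61585484 estimated counts. Dnmt1 itself was at 40.03, 52.4 and 51.7 CPM in HET and 20.9, 18.6 and 14.9 CPM in KO, a log2 fold change of -1.41 ± 0.15 (SE, edgeR adjusted p = 0.000264). Which part of the gene is deleted is not given in the sources, and reads over its whole length were counted. The labelled cell type was checked with 11 cap mesenchyme markers, which summed to 1855 to 1953 CPM in HET and 1293 to 1575 CPM in KO. Of these, 4 of 11 were called lower (Hoxd11, Tmem100, Wt1 and Cited1) and 0 higher. That is 36.4% lower, against 1.92% of all genes tested. The single calls in the lists below were all higher in KO, where 4.92% of all genes tested were called higher. Summed markers of endothelium, stroma, ureteric epithelium, macrophages and lymphoid cells were higher in every KO than in every HET library except for an overlap in the ureteric list, and were highest in KO replicate 1. The 10 endothelial markers summed to 32.1 to 44.9 CPM in HET and to 200, 85.1 and 49.4 CPM in KO replicates 1, 2 and 3 (1 of 10 called, Emcn). The 9 stromal markers ranged from 260 to 331 CPM in HET and from 343 to 861 CPM in KO (1 called, Lum), and the 10 ureteric markers from 48.7 to 84.8 CPM and from 74.6 to 259 CPM (1 called, Ret). The 10 macrophage and myeloid markers summed to 18.6 to 20.4 CPM in HET and 24.3 to 33.4 CPM in KO (1 called, Lyz2). The 7 erythroid markers gave 190 to 417 CPM and 144 to 318 CPM, and 10 markers of germ cells and gonadal support cells 63.8 to 86.0 CPM and 55.6 to 67.2 CPM, with 0 called in both lists and Foxl2 at 0 throughout. The 11 lymphoid markers, the class of cells in which Dub2 was described, summed to 26.2 to 30.95 CPM in HET and 33.9 to 38.04 CPM in KO (6 tested, 1 called higher, Cd79a). KO replicate 3 had the highest family sum, 62.2 CPM, against 53.6 and 53.8 CPM in the other KO libraries. Among the KO libraries it had the lowest endothelial, stromal and ureteric sums. It had the highest cap mesenchyme, erythroid and germ cell sums, and lay in between for macrophages and lymphoid cells. The part of other cell types in the levels of the Dub genes was not tested.

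The genes around the cluster were examined next, since position was not used to choose the Dub genes. Within 1 Mb of any Dub gene the annotation lists 202 other genes. Of these, 129 had 0 counts in all 6 libraries, beside 3796 of all 26567 genes. Of the 202 neighbours 33 could be tested, with 2 higher in KO and 0 lower by edgeR (31 not passing, median log2 fold change 0.03 against -0.003 over all genes tested). The share called higher, 6.06%, is close to the 4.92% of all genes tested, and 1.92% of all genes were lower, so this count is no result about the neighbours. At an unadjusted p under 0.05, 5 were higher and 2 lower, and DESeq2 called 3 higher and 0 lower.

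Most of these neighbours are olfactory receptor genes, which encode the odour receptors of the nose. Of 143 Olfr genes, 115 had 0 counts in all 6 libraries and 3 were tested, with 0 called. With 3 genes, 0 calls cannot be set apart from the 4.92% higher and 1.92% lower of all genes tested. None of the 28 Olfr genes with any count had estimated counts in all 3 KO libraries and in no HET library, the pattern of Dub3 and Dub1a. The untested Olfr genes had at most 31 summed KO counts, and the share of all genes with this pattern was not counted. This is therefore no result about the Olfr genes. The nearest protein-coding genes outside the cluster, Olfr594 (29.0 kb from Dub2a) and Olfr665 (18.0 kb from Dub1), had 0 counts in both groups. Of the 102 genes between Dub2a and Dub1, 73 were at 0 in every library, and the single gene annotated between Dub3 and Dub1 had 1 count in all libraries together.

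The 2 neighbours that passed the test are Trim genes, which encode ubiquitin ligases with roles in antiviral defence, out of 15 Trim genes in the window and 10 tested. Trim5 was at 2.91, 0.797 and 1.12 CPM in HET and at 15.37, 10.98 and 13.96 CPM in KO. Its groups did not overlap, and its log2 fold change was 3.06 ± 0.47 (SE, edgeR adjusted p = 0.0105), a call that was lost without HET replicate 3 (adjusted p = 0.057). Trim34a was at 1.01, 1.31 and 0.911 CPM in HET and at 5.35, 3.13 and 2.63 CPM in KO, with a log2 fold change of 1.78 ± 0.33 (edgeR adjusted p = 0.0094). Both lie between Usp17l5 and Dub3 and belong to families of similar copies, so the split of reads among copies is uncertain. Trim34a was highest in KO replicate 1, where the endothelial, stromal and ureteric markers were highest too, and the part of those cells in its change was not tested.

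**Figure D3:**
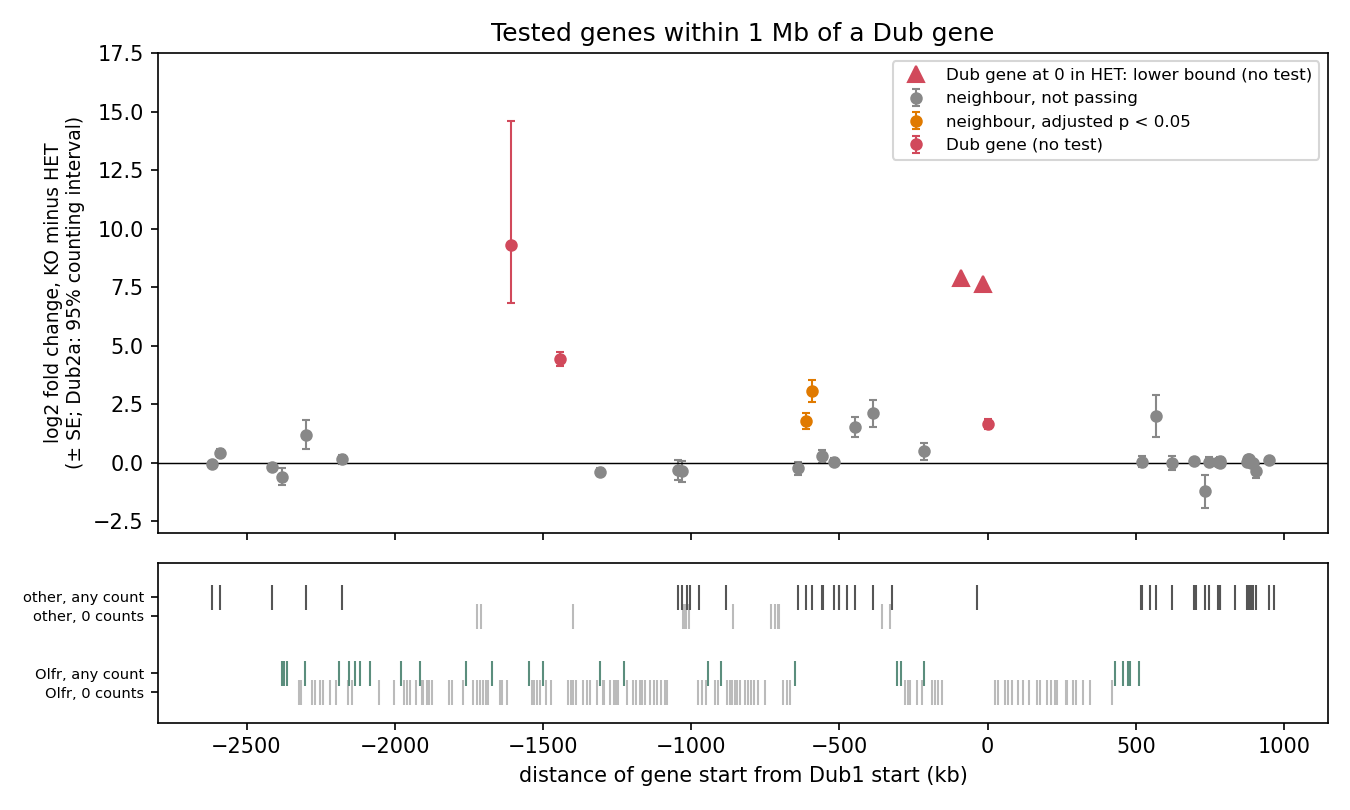
Top, log2 fold change (KO minus HET, ± SE) of the Dub genes (red) and of the 33 tested genes within 1 Mb (grey, or orange where edgeR's adjusted p was under 0.05) by distance from the Dub1 start in kb; triangles are lower bounds for Dub3 and Dub1a, and the bar of Dub2a is its 95% counting interval. Bottom, each annotated neighbour as a tick, by Olfr or other gene and by whether it had any count; the 2 orange neighbours are Trim34a and Trim5.

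Few other deubiquitinases passed the test. Of 86 genes of this class outside the family, 82 were tested, 5 were higher in KO, 1 was lower and 76 did not pass (edgeR). The shares of 6.1% higher and 1.22% lower are near those of all genes tested, 4.92% and 1.92%, and the median log2 fold change was -0.03. At an unadjusted p under 0.05, 11 were higher and 9 lower, and with library totals in place of TMM 3 were called higher and 12 lower.

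The largest differences in this class were those of Usp26 and Otud6a, both on chromosome X. Usp26, a ubiquitin-specific protease known from the testis, was at 0.0583, 0.017 and 0 CPM in HET and at 1.12, 1.20 and 0.963 CPM in KO, with a log2 fold change of 5.29 ± 0.67 (SE, edgeR adjusted p = 0.000787). Otud6a, a protease of the ovarian tumour domain class, was at 0.194, 0.17 and 0 CPM in HET and at 1.66, 2.01 and 2.34 CPM in KO, with a log2 fold change of 3.97 ± 0.68 (edgeR adjusted p = 0.0077). The sex makeup of the groups differed, as the Y-linked sums show, and its part in these X-linked genes was not tested. Neither gene's groups overlapped, and both stayed at low levels next to the family sum of 56.5 CPM. Both were too low in HET to pass the filter on low counts there, and passed it through KO, where they are high. Their calls and p-values are therefore a description.

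The remaining calls were smaller. Tnfaip3, which encodes the NF-kappaB inhibitor A20, had a log2 fold change of 1.48 ± 0.37 (edgeR adjusted p = 0.0386), Uchl1, known from neurons, 0.91 ± 0.23 (0.0414) and Mpnd 0.50 ± 0.12 (0.0411). Usp28, which stabilises proteins of the DNA damage response and Myc, fell by 0.38 on the log2 scale (SE 0.097, edgeR adjusted p = 0.0437). Tnfaip3 was highest in KO replicate 1 (4.50 CPM against 2.53 and 3.12), the library with most endothelial marker RNA, whose part was not tested. These 4 calls were lost when single libraries were left out, Tnfaip3 without 5 of the 6 libraries, Uchl1 without 5, Mpnd without each of the 6 and Usp28 without 5.

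**Figure D4:**
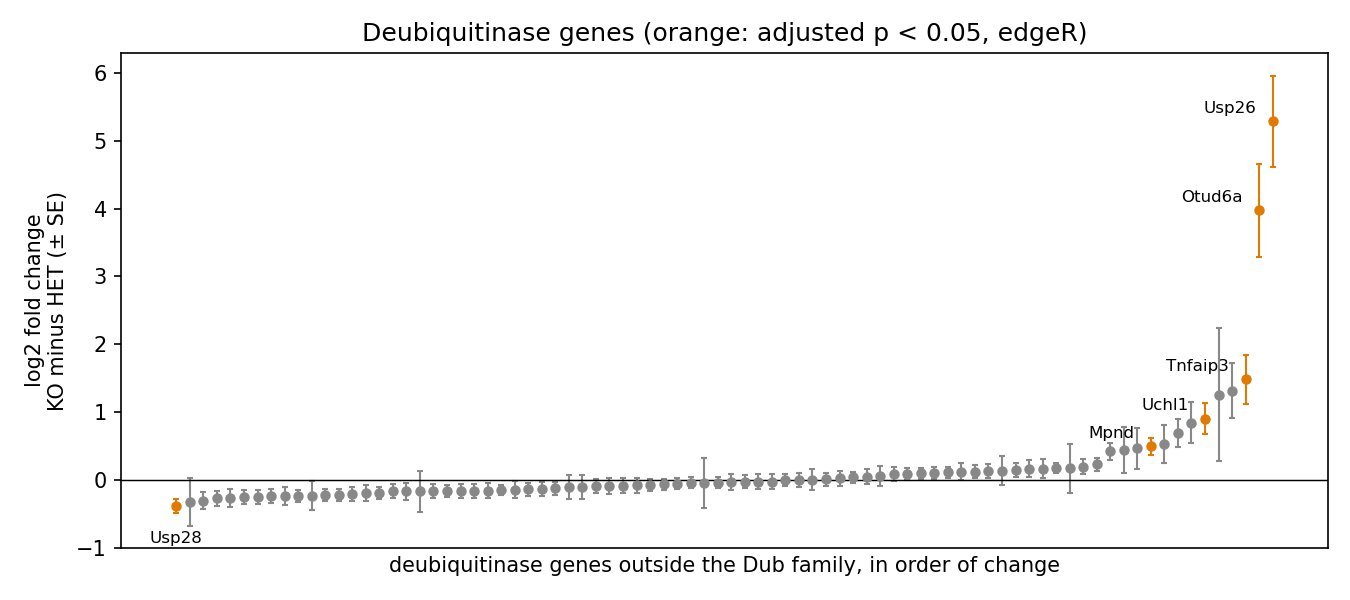
Log2 fold change (KO minus HET, ± SE) of the 82 tested deubiquitinase genes outside the Dub family, in order of change; orange points passed edgeR's adjusted p of 0.05. Usp26 and Otud6a stand at 5.29 and 3.97, and all other genes lie below 2.

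Proteins reported as substrates or regulators of the Dub enzymes were considered next. Of 14 listed genes, 12 were tested, with 1 higher, 1 lower and 10 not passing (edgeR), which is 8.33% each way against 4.92% higher and 1.92% lower of all genes tested. With 12 genes, 1 call makes this share. Ifih1, the cytosolic RNA sensor MDA5, had a log2 fold change of 1.67 ± 0.43 (edgeR adjusted p = 0.0472), with KO values of 2.84, 1.40 and 1.04 CPM against 0.415, 0.556 and 0.694 CPM in HET. Its KO values were in the same order as the endothelial sums, whose part was not tested. Snai2, a transcription factor of epithelial-mesenchymal transition, fell by 0.73 on the log2 scale (SE 0.15, edgeR adjusted p = 0.0236). The call of Ifih1 was lost without any 1 of 5 libraries, and that of Snai2 without any 1 of 4. Cdc25a, named for its role as the DUB3 substrate and outside the rule for named genes, was at 31.6 ± 3.81 CPM in HET and 28.9 ± 0.705 CPM in KO, with a log2 fold change of -0.13 ± 0.11 (edgeR adjusted p = 0.518). These are transcript levels, and the files hold no measure of protein or of ubiquitin.

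Cytokine receptor and JAK-STAT genes, which carry the signals that induce Dub1 and Dub2 in blood cells, were mostly not called. Of 29 genes 27 were tested, with 1 higher, 2 lower and 24 not passing (edgeR), and a median log2 fold change of 0.09. The shares were 3.7% higher and 7.41% lower, against 4.92% and 1.92% of all genes tested. Jak3, the kinase bound to the common gamma chain of the interleukin-2 receptor, was at 0.54, 0.275 and 0.114 CPM in HET and at 1.72, 2.29 and 1.604 CPM in KO, with a log2 fold change of 2.58 ± 0.50 (edgeR adjusted p = 0.0111). That call was lost without HET replicate 2 or without KO replicate 2. Jak3 was too low in HET to pass the filter on low counts there, and passed it through KO, where it is higher. Socs2, a feedback inhibitor of the pathway, fell by 0.75 (SE 0.13, edgeR adjusted p = 0.00551), and Csf2ra, a receptor chain for GM-CSF, fell by 0.57 (SE 0.14, edgeR adjusted p = 0.0407), both on the log2 scale. The call of Csf2ra was lost without any 1 of 5 libraries. Il2rb, a signalling chain of the interleukin-2 receptor chosen after its values were seen, was too low to be tested, at no more than 0.212 CPM in any library.

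Of the tested genes of the 2-cell embryo program, nearly all were higher in KO. Part of this list was known to rise from earlier results on these data, so its direction is not independent evidence. Of 38 listed genes 29 were matched and 18 tested, with 17 higher in KO, 0 lower (edgeR, with 0 at an unadjusted p under 0.05 and 0 with DESeq2) and 1 not passing, against 4.92% higher and 1.92% lower of all genes tested. The other 11 matched genes were too low to be tested. The 7 tested genes with 0 to 3 HET counts in all, 6 of them at 0, passed the filter through KO alone, where they are high. Other tested genes that were low in HET, among them Tmem92-ps and BC061212, also passed it through KO. The counts and medians are therefore a description. The median log2 fold change was 8.21 as fitted, and 7.46 with the 6 genes at 0 in HET set to their lower bound. Those 6 genes share with Dub3 and Dub1a an estimated count of 0 in every HET library.

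Zscan4d and Zscan4e, zinc finger genes of the 2-cell stage, had 0 counts in HET and were at 62.2 ± 11.2 and 29.1 ± 6.48 CPM in KO, at least 1062-fold higher for Zscan4d and 497-fold for Zscan4e. They lie on chromosome 7 outside the Dub window and are near-identical copies, so their own split is uncertain. Gm12794 was at 0 in HET and 10 ± 1.40 CPM in KO, at least 171-fold higher. Tmem92-ps was at 0.0381 ± 0.0519 CPM in HET and 16.3 ± 2.52 CPM in KO, and BC061212 at 0.0609 ± 0.0531 and 12.02 ± 0.880 CPM. Tmem72 rose 3.64-fold, from 142 ± 17.2 to 517 ± 46.8 CPM (edgeR adjusted p = 1.86e-06). In KO, Dub3 and Dub1a were at 13.99 and 11.6 CPM, beside 10 to 517 CPM for these genes. CPM is not scaled by transcript length, so the levels of different genes are not ranked here.

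The genes that supply ubiquitin and load it onto the conjugation machinery had no call. Of 8 genes 7 were tested, with 0 higher and 0 lower (edgeR), while 3 were higher at an unadjusted p under 0.05 and 3 with DESeq2. Over all genes tested, 4.92% were higher and 1.92% lower, so 0 calls among 7 genes is no result about them. Their median log2 fold change was 0.27, against -0.003 over all genes tested. The 2 with the smallest p were Uba1, the main ubiquitin-activating enzyme, at a log2 fold change of 0.27 ± 0.088 (edgeR adjusted p = 0.101), and the polyubiquitin gene Ubb, at 0.28 ± 0.096 (0.126).

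The genes whose levels followed the family sum most closely were found by Pearson correlation of log2(CPM + 1) over the 6 libraries, among 13979 genes averaging 1 CPM or more. They were Lrrc8d (r = 0.9987), a subunit of volume-regulated anion channels, at 93.6 ± 20.1 CPM in HET and 1662 ± 164 in KO; Tuba3b (0.9986), a tubulin known from the testis, at 0.716 ± 0.459 and 99.6 ± 1.32; Tmem72 (0.9985); Gm14511 (0.9983), at 0.0519 ± 0.0898 and 2.39 ± 0.231; and AV320801 (0.9980), at 0.0863 ± 0.128 and 10.9 ± 0.376. In all, 126 genes (0.901%) had an r over 0.99. The 6 points share their libraries and fall into the 2 genotypes, so r mostly records a gene's separation between the groups, and it is given as a description only. None of the 5 lies on chromosome 7.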

How the data were processed

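The authors deposited 1 table per library, made with kallisto per the submitters' processing notes and, per the file headers, with an estimated count (expected count) and a TPM value for each of 96626 transcripts. The notes name mm10. Not given in the sources used here: the kallisto version, its index, read length and strand setting. Reads from antisense partners therefore cannot be told apart. GENCODE vM1 paired 74519 transcripts with 26567 genes, which held 92.4% to 92.82% of the counts per library. These estimated counts, added up by gene and rounded, entered edgeR 4.0.16 in R 4.3.3 (quasi-likelihood test, TMM, filterByExpr, robust dispersions, no covariate), and p-values were adjusted by Benjamini-Hochberg over 16989 genes that passed the filter, at a threshold of 0.05. TPM values deposited by the authors were summed per gene for levels between genes. A group at 0 was set to a floor of 3 counts per library, and 1 to 3 counts got an exact 95% interval.

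The Dub genes and all lists were chosen with earlier results of these data known. Named genes are all Dub genes, Dnmt1, up to 6 called members of smallest p in each list (where none is called, 2), the nearest coding gene on each side, and the 5 genes most like the family sum. The tests were tested on simulated data. Alignments used mafft 7.526 and blastn 2.17.0. Alternatives were DESeq2 1.42.0, other normalisations and filters, limma 3.58.1 on TPM, a replicate block and each library left out. Replicate numbers did not pair libraries, and no pair agreed within sampling noise (chi-square per degree of freedom at least 13.63 within groups and at least 251.42 between them).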

Additional observations from a re-analysis of the deposited data

How the results depend on the processing

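The family's log2 ratio, 3.59, lay between 3.42 and 3.94 under all alternatives run for it: 3.60 with DESeq2 size factors, 3.42 with library totals, 3.94 in TPM, 3.46 with the leading transcript of each gene and 3.45 to 3.798 with each library left out. No gene named from the lists changed direction in any alternative run for it. Library totals moved the median of all genes by -0.166 (log2) and the TPM settings by -0.126 to -0.142; with library totals, calls moved from 836 higher and 327 lower to 731 and 1883. Over all genes, DESeq2 called 1346 higher and 586 lower, limma on log2(TPM + 1) 457 and 761, on log2(TPM + 0.1) 454 and 756, and without a filter 548 higher. Leaving out 1 library gave 526 to 916 higher and 116 to 272 lower, both lowest without KO replicate 2. For the other deubiquitinases (5 higher, 1 lower), library totals gave 3 and 12, DESeq2 8 higher, limma 2 and 3 at both pseudocounts and 2 higher without a filter, and leaving out libraries 2 to 3 and 0 to 1. For the genes within 1 Mb (2 and 0), library totals and limma at both pseudocounts each gave 1 lower, limma without a filter 1 higher, and leaving out libraries 1 to 3 higher and 0 lower. For substrates and regulators (1 and 1), the 3 limma settings gave 0 higher, limma without a filter 0 lower, and leaving out libraries 0 to 1 each way. For cytokine receptor and JAK-STAT genes (1 and 2), DESeq2 gave 4 higher, limma at both pseudocounts 0 higher, and leaving out libraries 0 to 2 higher and 1 to 2 lower. The 2-cell list kept 16 to 18 higher and 0 lower with a library left out. The cause of these differences was not tested. With the replicate number as a block, 707 genes were higher and 265 lower, substrates and regulators had 0 higher, the cytokine list had 1 lower, and Otud6a missed the threshold (adjusted p = 0.0515, edgeR). Same-numbered libraries did not deviate together (r of -0.068, -0.031 and -0.045), so the numbers do not pair them. Depth limits the 3 genes at or near 0 in HET to the bounds given.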
